A study of Mus musculus with 17 samples.

Results

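A set of 10 genes that mark endothelial cells was followed through lung tumour formation in the mouse: the junction and adhesion genes Pecam1, Cdh5, Esam and Icam2, the transcription factor genes Erg, Sox17 and Sox18, the secreted factor gene Egfl7, the receptor gene Robo4 and the nitric oxide synthase gene Nos3. They were chosen by name as a textbook set of endothelial genes, with earlier results of these data known. Each was read from the transcript cluster, the array's unit for a gene, that carried its symbol alone. All 10 had exactly 1 such cluster, among 23238 clusters in all and 14939 with a single symbol, and no filter removed any of them.

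Endothelial cells line blood vessels and, in the lung, form the capillary bed against which gas is exchanged. They hold together through adherens junctions built on VE-cadherin, the product of Cdh5, while ERG, an ETS-family factor, and the SOXF factors SOX17 and SOX18 maintain the genes that give these cells their character. The products of Egfl7, Robo4 and Nos3 act in vessel growth, barrier stability and vessel tone.

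RNA had been taken by laser microdissection from haematoxylin-stained frozen sections and measured on 17 Affymetrix mouse exon arrays. Adenocarcinomas (4 arrays, animals of 11.5 to 14 months), dysplasias (4 arrays, 5 to 6 months) and histologically unaltered lung (4 arrays, 5 to 6 months) came from SPC/c-Raf mice. In these animals the surfactant protein C promoter, active in alveolar epithelium, drives a c-Raf transgene, so the oncogene is aimed at epithelial and not at endothelial cells. Non-transgenic lung (5 arrays, 7 to 11 months) came from mice without the transgene. The dysplasia and unaltered arrays carry the same 4 animal labels, 3 arrays name 2 animals each, and age differs between all groups except those of dysplasia and unaltered lung, so elsewhere age and group cannot be told apart.

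Values are log2 units as deposited, so a difference of 1 is a factor of 2, and array medians lay between 6.67 and 6.85. On 4 arrays the labelled sex did not match the level of Eif2s3y and Kdm5d, genes of the Y chromosome, namely non-transgenic replicates 2, 3 and 5 and adenocarcinoma replicate 2. Non-transgenic replicates 4 and 5 had low Y-linked values (means of 3.78 and 3.67, against 7.92 to 8.60 on the other arrays) and stood apart from replicates 1 to 3, with rank correlations of 0.975 to 0.980 between the sets and at least 0.989 within them. Both lay below replicates 1 to 3 for 5 of the 10 endothelial genes. The count of genes that passed in unaltered against non-transgenic lung, and the change of Robo4 there, are given with and without them. Other fitted changes are given with them.

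All 10 genes were lower in adenocarcinoma than in non-transgenic lung, by 1.60-fold for Nos3 to 5.44-fold for Icam2, and all 10 passed the test (adjusted p 7.88e-10 to 1.44e-06, limma with Benjamini-Hochberg adjustment over all clusters at 0.05). The group means ran in the same order for all 10, lowest in adenocarcinoma, then dysplasia, then unaltered lung and highest in non-transgenic lung. The share of all clusters with this order was not counted. All 10 genes were read on the same arrays, so they are not independent. A lower value in a dissected piece of tissue can mean fewer endothelial cells or less RNA per endothelial cell, and these arrays cannot tell these apart. Among all clusters, 16.4% fell in adenocarcinoma against non-transgenic lung. The median change of the 10 genes was -2.03, against 0.01 over all clusters. For each of the 10, every adenocarcinoma array lay below every non-transgenic array, as did 15.2% of all clusters in that direction.

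Pecam1 encodes the adhesion receptor CD31, found at endothelial cell contacts and also on platelets and leukocytes (transcript cluster 6791960). Its log2 values were 9.95, 10.10, 9.94 and 9.98 in adenocarcinoma, 11.26, 11.02, 10.80 and 11.36 in dysplasia, 11.85, 11.77, 11.82 and 11.96 in unaltered lung, and 12.12, 12.16, 12.11, 11.85 and 11.84 in non-transgenic lung. The 3 transgenic groups did not overlap with one another, while unaltered and non-transgenic lung did. Pecam1 fell by 2.02 ± 0.11 (SE) on the log2 scale in adenocarcinoma against non-transgenic lung, a 4.06-fold lower level. It fell by 1.12 ± 0.11 in adenocarcinoma against dysplasia (adjusted p = 6.36e-06) and by 0.74 ± 0.10 in dysplasia against unaltered lung (adjusted p = 9.98e-05).

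Cdh5, the gene of VE-cadherin (cluster 6978695), had 10.03, 10.18, 10.22 and 10.32 in adenocarcinoma, 11.85, 11.61, 11.10 and 11.93 in dysplasia, 12.39, 12.35, 12.20 and 12.43 in unaltered lung, and 12.48, 12.63, 12.64, 12.56 and 12.42 in non-transgenic lung. The adenocarcinoma and dysplasia arrays were separated by a wide gap, and the highest unaltered array lay just above the lowest non-transgenic one. Cdh5 was 5.13-fold lower in adenocarcinoma than in non-transgenic lung (log2 change -2.36 ± 0.13, adjusted p = 1.44e-09). The step between adenocarcinoma and dysplasia was -1.43 ± 0.14 (adjusted p = 4.51e-06), and that between dysplasia and unaltered lung was -0.72 ± 0.12 (adjusted p = 0.000615).

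Icam2 encodes a ligand of leukocyte integrins that resting endothelium carries (cluster 6791918). It read 6.16, 6.11, 6.13 and 6.63 in adenocarcinoma, 8.01, 7.76, 7.14 and 8.05 in dysplasia, 8.39, 8.26, 8.54 and 8.91 in unaltered lung, and 8.69, 8.72, 8.85, 8.53 and 8.71 in non-transgenic lung. Adenocarcinoma replicate 4 was high for its group yet below every dysplasia array. Of the 10 genes, Icam2 had the largest fitted change between adenocarcinoma and non-transgenic lung (-2.44 ± 0.18, adjusted p = 2.53e-08), a difference from Cdh5 smaller than its standard error. It fell by 1.48 ± 0.19 in adenocarcinoma against dysplasia and by 0.78 ± 0.16 in dysplasia against unaltered lung (adjusted p = 6.58e-05 and 0.00329).

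Esam, whose product is an immunoglobulin-type adhesion molecule of endothelial tight junctions and platelets (cluster 6988220), followed another course. Its values were 9.99, 9.78, 9.98 and 9.96 in adenocarcinoma, 10.36, 10.17, 10.07 and 10.44 in dysplasia, 10.40, 10.36, 10.07 and 10.40 in unaltered lung, and 10.66, 10.81, 10.77, 10.85 and 10.95 in non-transgenic lung. Dysplasia and unaltered lung covered almost the same range, and all unaltered arrays lay below all non-transgenic ones. Esam fell by 0.50 ± 0.09 in unaltered against non-transgenic lung (adjusted p = 0.00306) and had a change of -0.05 ± 0.08 in dysplasia against unaltered lung (adjusted p = 0.729). In adenocarcinoma it fell by 0.33 ± 0.09 against dysplasia (adjusted p = 0.0306). That call was lost on leaving out adenocarcinoma replicate 2, 3 or 4 or dysplasia replicate 1 or 4, with adjusted p of 0.0547 to 0.102.

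Erg (cluster 6848127) encodes a transcription factor that keeps endothelial junction genes active. It gave 8.02, 7.91, 7.98 and 8.04 in adenocarcinoma, 9.54, 9.13, 8.42 and 9.53 in dysplasia, 10.00, 9.62, 9.19 and 9.67 in unaltered lung, and 10.20, 10.17, 10.26, 10.12 and 9.96 in non-transgenic lung. The adenocarcinoma arrays lay within a narrow band, the dysplasia arrays were widely spread, and dysplasia overlapped with unaltered lung. Erg fell by 2.15 ± 0.18 in adenocarcinoma against non-transgenic lung (4.45-fold, adjusted p = 1.23e-07) and by 1.17 ± 0.19 against dysplasia (adjusted p = 0.000637). Between dysplasia and unaltered lung its change of -0.47 ± 0.17 did not pass (adjusted p = 0.0592). It passed on leaving out dysplasia replicate 1 (adjusted p = 0.0471), dysplasia replicate 4 (0.0217) or unaltered replicate 3 (0.0482).

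Sox17 (cluster 6756599), a SOXF gene tied to arterial identity, had 7.10, 6.86, 6.86 and 6.92 in adenocarcinoma, 8.28, 7.88, 7.33 and 8.28 in dysplasia, 8.55, 8.29, 8.09 and 8.52 in unaltered lung, and 9.03, 9.11, 9.20, 8.60 and 8.91 in non-transgenic lung. Unaltered lung lay wholly below non-transgenic lung, by a margin of 0.05 at its narrowest, and dysplasia overlapped with unaltered lung. Sox17 fell by 2.03 ± 0.17 in adenocarcinoma against non-transgenic lung (4.09-fold, adjusted p = 1.07e-07), by 1.01 ± 0.18 against dysplasia (adjusted p = 0.0012) and by 0.61 ± 0.17 in unaltered against non-transgenic lung (adjusted p = 0.0268). Its change of -0.42 ± 0.15 in dysplasia against unaltered lung had an adjusted p of 0.0699, which reached 0.0485 without dysplasia replicate 1 and 0.0359 without dysplasia replicate 4. The call of Sox17 in unaltered against non-transgenic lung held in 14 of 24 alternative fits (limma, adjusted p up to 0.355).

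Sox18 (cluster 6894310), a SOXF gene of blood and lymphatic vessel formation, had 7.88, 7.81, 7.55 and 7.87 in adenocarcinoma, 8.30, 8.50, 8.26 and 8.53 in dysplasia, 8.91, 8.71, 8.75 and 9.06 in unaltered lung, and 8.97, 9.31, 8.97, 9.36 and 8.95 in non-transgenic lung. The 3 transgenic groups formed separate bands. Sox18 fell by 1.34 ± 0.11 in adenocarcinoma against non-transgenic lung (2.52-fold, adjusted p = 1.32e-07), by 0.62 ± 0.12 against dysplasia (adjusted p = 0.00234) and by 0.46 ± 0.10 in dysplasia against unaltered lung (adjusted p = 0.00523).

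**Figure D1:**
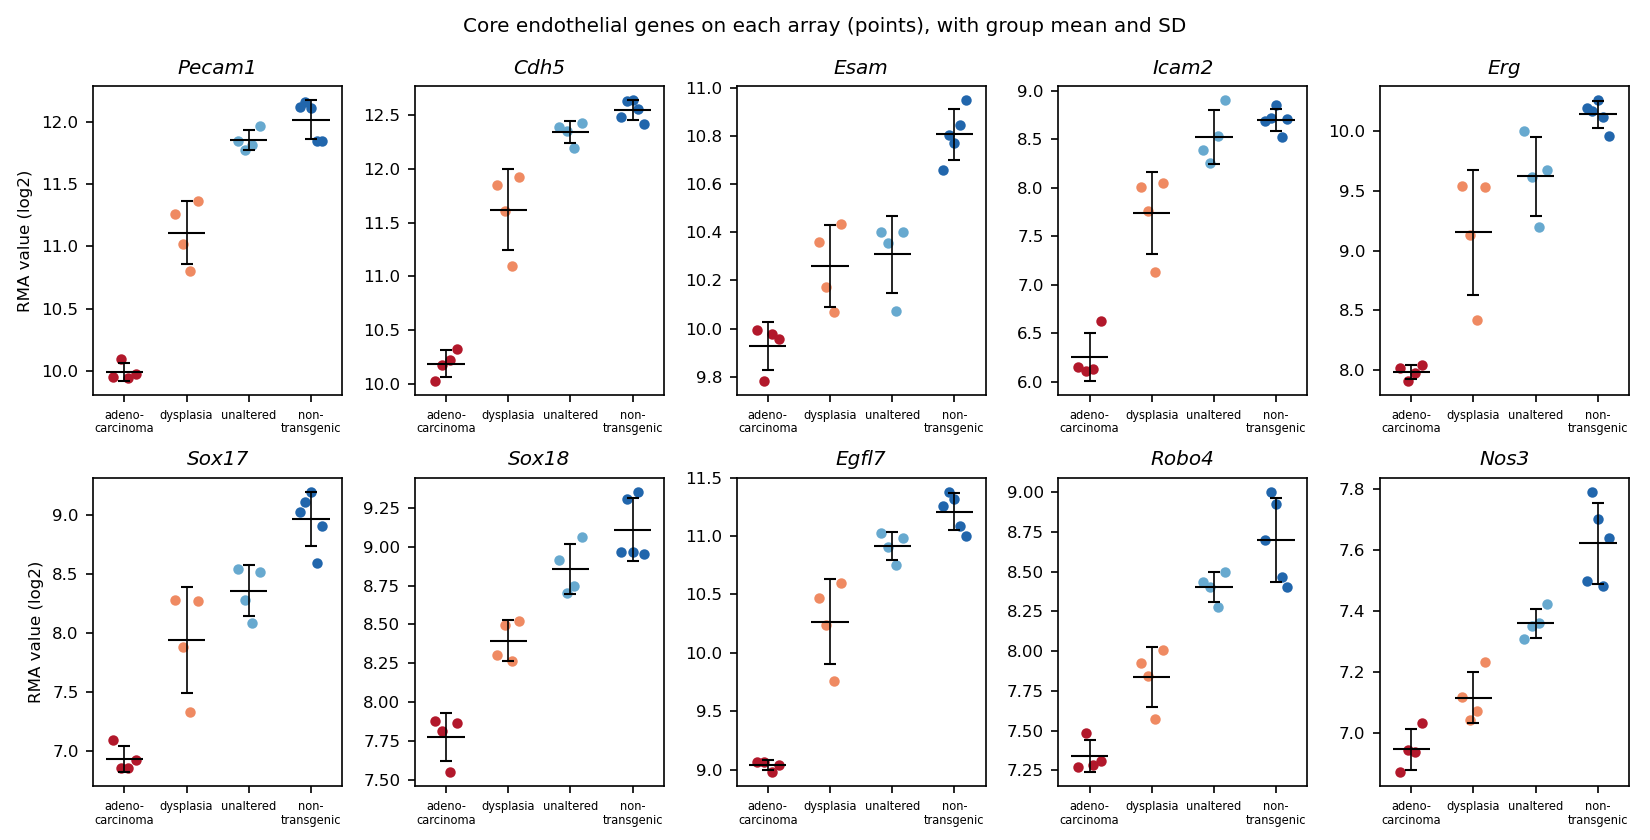
Log2 RMA value (vertical axis, a separate scale for each panel) of each endothelial gene on every array, by tissue group, with points for arrays and bars for the group mean and SD. Adenocarcinoma arrays lie below all other arrays for all 10 genes, and Esam is the gene whose dysplasia and unaltered arrays cover almost the same range.

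Egfl7 (cluster 6875803) encodes a factor that endothelial cells secrete into the vessel wall. It read 9.07, 9.06, 8.98 and 9.04 in adenocarcinoma, 10.47, 10.24, 9.76 and 10.60 in dysplasia, 11.03, 10.91, 10.75 and 10.98 in unaltered lung, and 11.26, 11.38, 11.32, 11.09 and 11.00 in non-transgenic lung. The 3 transgenic groups were again separate, and the unaltered range reached just into the non-transgenic one. Egfl7 fell by 2.17 ± 0.13 in adenocarcinoma against non-transgenic lung (4.51-fold, adjusted p = 3.44e-09), by 1.23 ± 0.14 against dysplasia (adjusted p = 1.98e-05) and by 0.65 ± 0.12 in dysplasia against unaltered lung (adjusted p = 0.00145). The Egfl7 gene also holds miR-126, a microRNA of endothelial cells whose level is not given here. In RefSeq GRCm38.p6 its 3p strand lies on the plus strand at chr2:26591402-26591423, with the seed, bases 2 to 8, in capitals:
mmu-miR-126a-3p: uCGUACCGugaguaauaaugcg

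Robo4 (cluster 6988213), an endothelial member of the roundabout receptors that steadies vessels, had 7.27, 7.49, 7.28 and 7.31 in adenocarcinoma, 7.93, 7.84, 7.58 and 8.004 in dysplasia, 8.44, 8.40, 8.28 and 8.50 in unaltered lung, and 8.70, 9.003, 8.92, 8.46 and 8.41 in non-transgenic lung. Non-transgenic replicates 4 and 5 lay within the unaltered range while replicates 1 to 3 lay above it. Robo4 fell by 1.36 ± 0.12 in adenocarcinoma against non-transgenic lung (2.57-fold, adjusted p = 2.17e-07) and by 0.57 ± 0.11 in dysplasia against unaltered lung (adjusted p = 0.00202). Its fall of 0.50 ± 0.13 in adenocarcinoma against dysplasia (adjusted p = 0.0167) was lost without dysplasia replicate 1 (0.0536) or replicate 4 (0.0569). In unaltered against non-transgenic lung its change of -0.29 ± 0.12 did not pass (adjusted p = 0.115), whereas leaving out non-transgenic replicates 4 and 5 gave -0.47, which passed (adjusted p = 0.0121).

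Nos3 (cluster 6929292), the endothelial nitric oxide synthase gene, had the smallest change in adenocarcinoma against non-transgenic lung. Its values were 6.87, 6.94, 6.93 and 7.03 in adenocarcinoma, 7.12, 7.04, 7.07 and 7.23 in dysplasia, 7.31, 7.35, 7.36 and 7.42 in unaltered lung, and 7.50, 7.79, 7.70, 7.48 and 7.64 in non-transgenic lung. The groups did not overlap, but the bands of adenocarcinoma and dysplasia nearly touched. All its values lay close to the array medians, and whether a weak probe signal narrows its differences was not tested. Nos3 fell by 0.68 ± 0.07 in adenocarcinoma against non-transgenic lung (1.60-fold, adjusted p = 1.44e-06), by 0.24 ± 0.06 in dysplasia against unaltered lung (adjusted p = 0.0141) and by 0.26 ± 0.07 in unaltered against non-transgenic lung (adjusted p = 0.0233). Its change of -0.17 ± 0.07 in adenocarcinoma against dysplasia did not pass (adjusted p = 0.174). Without dysplasia replicate 2 the call between dysplasia and unaltered lung was lost (adjusted p = 0.0566). The call of Nos3 in unaltered against non-transgenic lung held in 13 of 24 alternative fits (limma, adjusted p up to 0.312).

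By the median of the 10 genes, the step between unaltered and non-transgenic lung was the smallest, although Esam, Erg, Sox17 and Nos3 had larger estimates there than in dysplasia against unaltered lung. In unaltered against non-transgenic lung, Esam, Sox17 and Nos3 fell and the other 7 genes did not pass, with all 10 estimates negative (-0.61 to -0.16) and a median of -0.28. Over all clusters, 11.8% fell there, 11.9% had no overlap in that direction, as had the same 3 genes, and the median was -0.08, which the 3 of 10 are read against. That background depends on the scaling: 2743 clusters fell as reported, 822 with quantile normalization and 971 with cyclic loess, and with each of these 1 of the 10 genes passed. With age as a covariate none of the 10 passed, and the clusters called in either direction went from 3317 to 180. The count was 4 without non-transgenic replicates 4 and 5 and 1 without replicates 1 to 3, where the one call left was Esam. It was also 1 on leaving out non-transgenic replicate 2, non-transgenic replicate 3 or unaltered replicate 2.

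Dysplasia against unaltered lung is the step within the same animals. Pecam1, Cdh5, Icam2, Sox18, Egfl7, Robo4 and Nos3 fell, Esam, Erg and Sox17 did not pass, and none rose. The arrays of both groups did not overlap for these 7. Of all clusters, 5.32% fell in this comparison and 5.62% had all dysplasia arrays below all unaltered ones. The number of clusters that fell was 1236 as reported, 2354 with quantile normalization and 2032 with cyclic loess, and with both of these 9 of the 10 genes passed. The median change was -0.52 for the 10 genes and 0.06 for all clusters. Within animal labels, 39 of 40 differences were negative. The exception was Esam in pair 4 (0.03), and the deepest was Icam2 in pair 3 (-1.40). All 10 genes were read on the same 4 pairs, so the 40 differences are not independent. The same count was not made over all clusters. Cdh5 differed by -0.54, -0.74, -1.10 and -0.50 in the 4 pairs, and Pecam1 by -0.59, -0.76, -1.02 and -0.60. Dysplasia replicate 3 was the lowest dysplasia array for 9 of the 10 genes, and unaltered replicate 3, of the same animal label, was the lowest unaltered array for 6. When the animal was fitted as a fixed replicate block, Pecam1, Cdh5, Egfl7 and Robo4 passed (adjusted p 0.0269 to 0.0438), while Sox18 (0.0517), Icam2 (0.0736) and Nos3 (0.0856) did not.

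**Figure D2:**
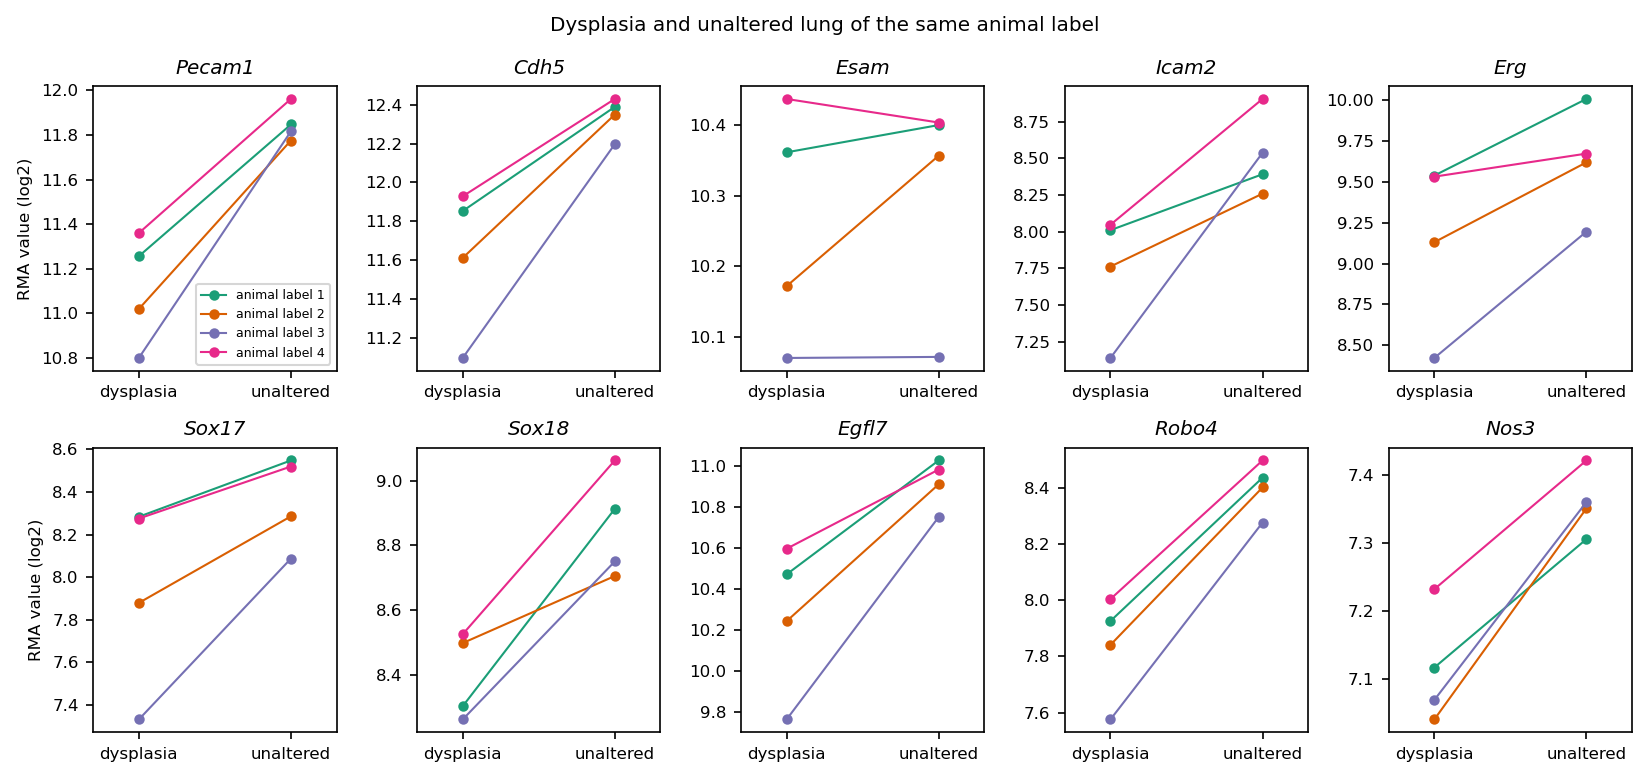
Log2 RMA value (vertical axis, a separate scale for each panel) in dysplasia and in unaltered lung, with a line joining the arrays that carry the same animal label. All lines rise towards unaltered lung except that of Esam in pair 4, and pair 3 starts lowest in dysplasia for 9 of the 10 genes.

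In the last step, adenocarcinoma against dysplasia, 9 of the 10 genes fell, 6 of them by at least 2-fold, and only Nos3 did not pass. The median was -1.06, against 0.01 over all clusters, of which 7.48% fell. All 10 genes had every adenocarcinoma array below every dysplasia array, as had 11.8% of all clusters. Against unaltered lung all 10 fell in adenocarcinoma (-2.27 to -0.38, median -1.53, with 10.1% of all clusters lower and 11.3% lower without overlap), and against non-transgenic lung all 10 fell in dysplasia (-1.03 to -0.51, median -0.92, with 9.86% of all clusters lower and 10.3% lower without overlap). In both, no array of one group overlapped with the other for any of the 10. These comparisons share arrays and are not independent of the steps above. None of the 10 rose in any of the 6 comparisons. Over all clusters, 4.48% rose in adenocarcinoma against dysplasia, 16.8% against unaltered lung and 13.6% against non-transgenic lung, 15.1% in dysplasia against unaltered lung and 7.62% against non-transgenic lung, and 2.47% in unaltered against non-transgenic lung. With age as a covariate, only Cdh5 passed in adenocarcinoma against dysplasia (adjusted p = 0.0493), 2 groups whose ages do not overlap. Over all clusters that fit called 352 in either direction, against 2780 without age. With the same covariate 6 of the 10 passed in adenocarcinoma against unaltered lung, where Esam (0.14), Nos3 (0.0894), Robo4 (0.0809) and Sox18 (0.0859) did not. There 1483 of all clusters were called, against 6241 without age.

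**Figure D3:**
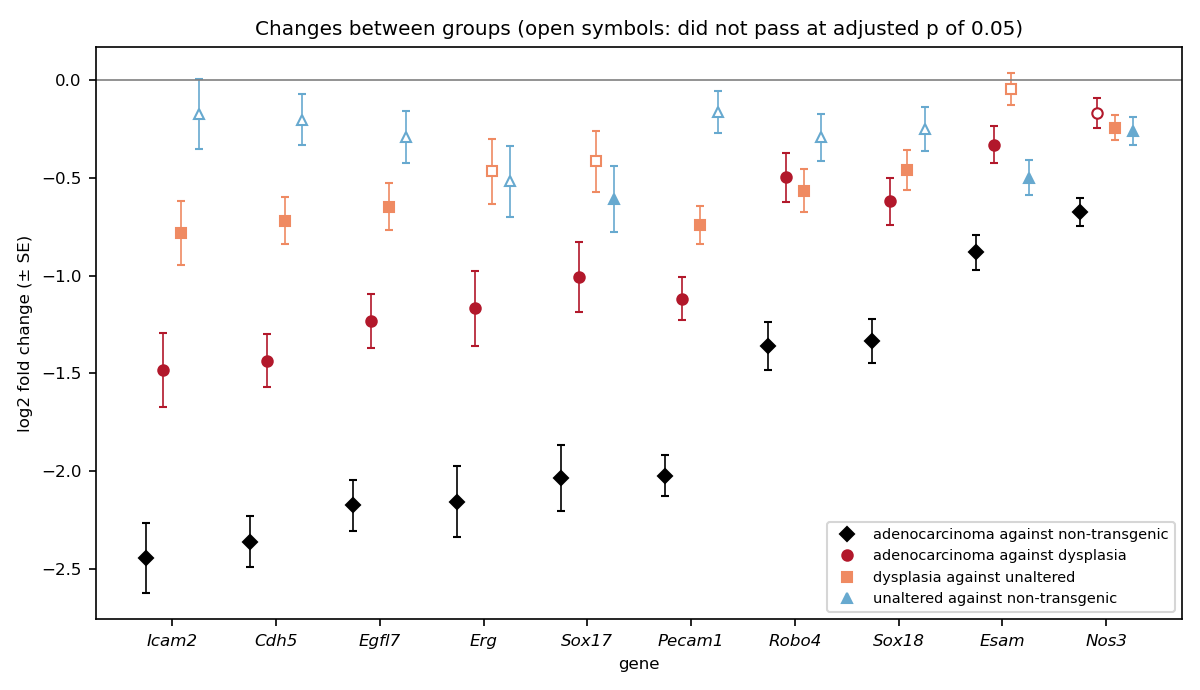
Log2 fold change with its standard error (vertical axis) of each endothelial gene in 4 comparisons, genes ordered by the change in adenocarcinoma against non-transgenic lung. Icam2 (-2.44) and Nos3 (-0.68) mark the ends of the range, filled symbols passed at an adjusted p of 0.05, and open symbols did not.

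The steps contributed unequally from gene to gene. Of the whole log2 difference between adenocarcinoma and non-transgenic lung, the step between adenocarcinoma and dysplasia made up a median of 51.9% over the 10 genes, that between dysplasia and unaltered lung 31.3%, and that between unaltered and non-transgenic lung 20.3%. For Cdh5 the step between adenocarcinoma and dysplasia made up 60.8%, that between dysplasia and unaltered lung 30.5% and that between unaltered and non-transgenic lung 8.68%. For Esam the step into adenocarcinoma made up 37.8%, that into dysplasia 5.43% and that into unaltered transgenic lung 56.7%. For Nos3 the step into adenocarcinoma made up 25.1%, that into dysplasia 36.1% and that into unaltered transgenic lung 38.7%. In Robo4 the step into dysplasia (41.7%) and that into adenocarcinoma (36.7%) differed by less than their standard errors. In Esam the step without a visible lesion had the largest estimate (-0.50 ± 0.09, against -0.33 ± 0.09 for the step into adenocarcinoma). The difference between these 2 estimates was not tested. In Nos3 the step without a visible lesion and the one into dysplasia differed by less than their standard errors. Differences in these shares between genes were not tested.

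The change relative to Cdh5, the junction gene most confined to endothelium, was taken on each array as the gene's log2 value minus that of Cdh5. In adenocarcinoma against non-transgenic lung, 7 of 9 genes fell less than Cdh5 (exact two-sided permutation test over arrays, adjusted over 18 tests). Of the 10 genes only Icam2 had a larger fitted fall than Cdh5 (-2.44 against -2.36, and -1.48 against -1.43 in adenocarcinoma against dysplasia). The direction of most differences therefore follows from the choice of reference, and their sizes are what is described here. Nos3 minus Cdh5 was -3.24 ± 0.06 (SD, n = 4) in adenocarcinoma and -4.93 ± 0.12 (SD, n = 5) in non-transgenic lung, a difference of 1.68. The differences were 1.48 for Esam, 1.02 for Sox18, 1.00 for Robo4 and 0.33 for Sox17, and for these and Nos3 the arrays of both groups were fully separated (permutation p = 0.00794, the smallest possible, adjusted p = 0.0286). Pecam1 (0.34) and Erg (0.21) also passed by the exact permutation test (adjusted p = 0.0367). Egfl7 (0.19, adjusted p = 0.0804) and Icam2 (-0.08, adjusted p = 0.454) did not. In adenocarcinoma the mean levels of Sox17 (6.93), Nos3 (6.94) and Robo4 (7.34) lay far nearer the array medians than that of Cdh5 (10.19). Esam had a mean of 9.93 there and Icam2 one of 6.26. Whether weak probe signal narrows the changes of the low genes relative to Cdh5 was not tested.

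Against dysplasia, Nos3 differed by 1.26, Esam by 1.10, Robo4 by 0.94 and Sox18 by 0.81, followed by Sox17 (0.43), Erg (0.27) and Egfl7 (0.20), all at the smallest exact permutation p of 0.0286 (adjusted p = 0.0367). Pecam1 (0.32, adjusted p = 0.0686) and Icam2 (-0.05, adjusted p = 0.686) did not pass by the same exact test. With Pecam1 in place of Cdh5 no gene passed against dysplasia, and the lowest adjusted p was 0.0514. These comparisons share the adenocarcinoma arrays with those before. Adenocarcinoma replicate 1 gave the highest value of its group for 7 of the 9 differences. Without it no gene passed in either comparison, and the adjusted p of Nos3, Esam and Robo4 was 0.0571 in both (exact permutation test). The smallest exact permutation p against non-transgenic lung is then 0.0179, and the differences were 1.66 for Nos3 and 1.40 for Esam.

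**Figure D4:**
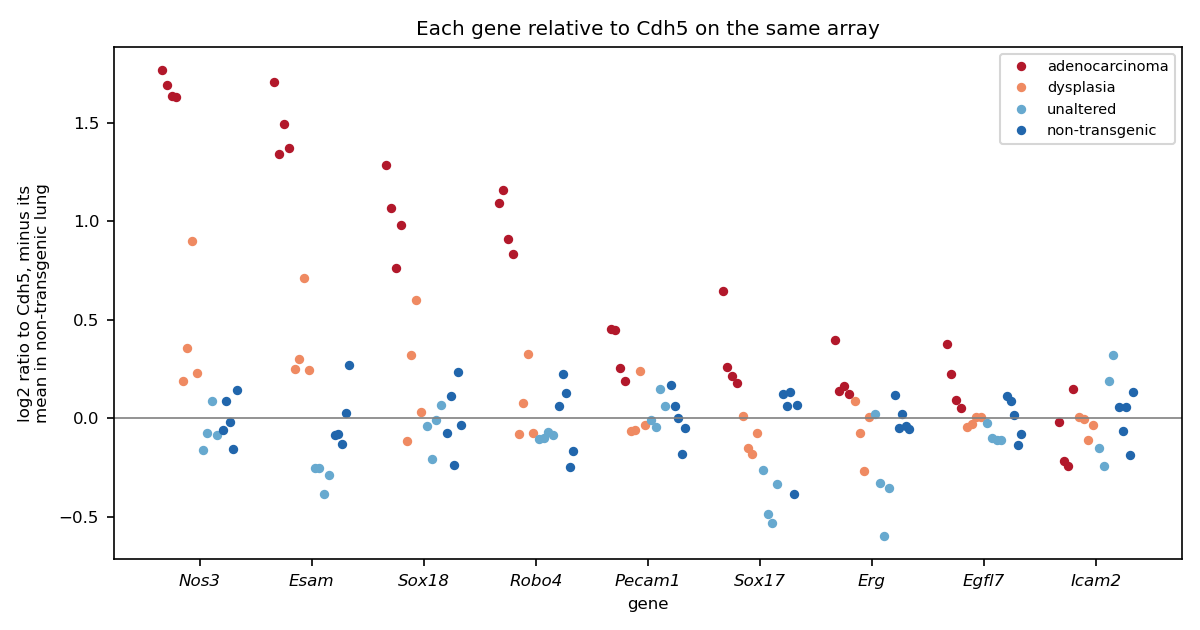
Log2 value of each gene minus that of Cdh5 on the same array, shown as the difference from its mean in non-transgenic lung (vertical axis), with 1 point per array. The adenocarcinoma points of Nos3, Esam, Sox18 and Robo4 lie above all points of the other groups, and those of Icam2 spread around 0.

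Over the 17 arrays the 45 pairs of genes had Pearson correlations of 0.82 to 0.99 (median 0.94), which the order of the groups largely sets. After each gene was centred within its group, the correlations ran from 0.13 (Esam with Robo4) to 0.92 (Sox17 with Egfl7), with a median of 0.59 and all 45 above 0. Egfl7 and Cdh5 moved most closely with the other genes within groups (median r of 0.82 and 0.77), and Sox18 least (0.27). Arrays of an animal label and any error in an array's scaling are shared by all genes, so these values are descriptive. The groups also weigh unequally in them. The SD of Egfl7 was 0.37 in dysplasia and 0.04 in adenocarcinoma, and that of Sox18 was 0.13 and 0.16. Dysplasia replicate 3 was the lowest of its group for 9 of the 10 genes, and its part in the order of the genes was not tested.

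Of 14486 other clusters with a single symbol, gene-model and accession-style names left out, those whose values over the 17 arrays were most like the mean of the 10 genes, by Pearson correlation, were Vcl and Adcy4 (both 0.997), Il17rd (0.996), Septin4 and Specc1l (both 0.995), and Ephb4, Tbx2, Eng, Arhgef10 and Sipa1 (all 0.994). Eng, the endothelial TGF-beta co-receptor endoglin, was the one of these on a list of other endothelial genes. It fell by 2.20 in adenocarcinoma against non-transgenic lung (limma, adjusted p = 7.35e-10). Because Eng was picked for its likeness to the 10 genes over the same arrays, this fall follows from the choice and is no separate support. After centring within groups, Myct1 came first (0.968), with Epn2 in the tenth place (0.939), and Vcl, which encodes the junction-linked actin adaptor vinculin, was in both sets of 10.

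RefSeq promoter windows (GRCm38.p6, 250 bases before to 50 after a start site) were at hand for 3 of the 10 genes, Egfl7, Robo4 and Erg. These windows were searched because ERG and other ETS factors bind GGAA-centred DNA. Any part of ERG in the fall of these genes was not tested. The letters AGGAAG and CGGAAG were searched on both strands, and matches are in capitals (CTTCCT where the match is on the other strand). The first Egfl7 start site (chr2:26580833-26581132, plus strand) had 3 matches, the second (chr2:26583615-26583914, plus strand) 2, Robo4 (chr9:37401722-37402021, plus strand) 1 and start site 3 of Erg (chr16:95459299-95459598, minus strand) 1:
Egfl7, first start site: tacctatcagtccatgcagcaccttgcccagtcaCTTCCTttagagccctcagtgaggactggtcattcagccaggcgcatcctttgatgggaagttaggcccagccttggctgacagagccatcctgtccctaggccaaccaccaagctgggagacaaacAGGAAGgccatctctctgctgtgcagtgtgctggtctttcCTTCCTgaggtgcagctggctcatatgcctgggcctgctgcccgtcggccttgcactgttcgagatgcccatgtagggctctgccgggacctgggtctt
Egfl7, second start site: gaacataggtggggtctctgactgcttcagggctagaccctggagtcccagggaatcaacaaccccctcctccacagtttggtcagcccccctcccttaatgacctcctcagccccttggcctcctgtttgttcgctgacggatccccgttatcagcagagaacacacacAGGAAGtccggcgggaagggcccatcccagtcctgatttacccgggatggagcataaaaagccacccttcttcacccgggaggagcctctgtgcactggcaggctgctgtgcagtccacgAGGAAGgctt
Robo4: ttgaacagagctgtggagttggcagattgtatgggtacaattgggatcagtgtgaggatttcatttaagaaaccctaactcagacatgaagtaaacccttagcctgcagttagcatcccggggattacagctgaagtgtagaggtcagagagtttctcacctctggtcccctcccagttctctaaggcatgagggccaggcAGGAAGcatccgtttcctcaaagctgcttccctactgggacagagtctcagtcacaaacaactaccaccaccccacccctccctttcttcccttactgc
Erg, start site 3: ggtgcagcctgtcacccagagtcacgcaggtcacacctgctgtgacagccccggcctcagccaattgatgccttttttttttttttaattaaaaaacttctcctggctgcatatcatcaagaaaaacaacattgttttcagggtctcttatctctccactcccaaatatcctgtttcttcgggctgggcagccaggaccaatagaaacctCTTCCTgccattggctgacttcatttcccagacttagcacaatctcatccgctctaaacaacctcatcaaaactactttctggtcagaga

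The remaining Egfl7 window and the other two of Erg held none of these letters. Matches began at positions -216, -89 and -49 from the first Egfl7 start site, at -80 and 41 from the second, at -49 in Robo4 and at -40 in Erg. Of all 32851 promoter windows, 35.4% held AGGAAG, 16.9% CGGAAG and 46.5% either, so a match in 4 of 7 windows is close to the background. The letters ACAAT or ACAAAG, used as a plain form of the SOX motif, occurred in 42.9% of all windows, 2 times each in Robo4 and in the Erg window shown and 1 time in the remaining Egfl7 window. A match of letters is a description and does not show binding.

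The fall extended to other endothelial genes. Of a list of 55, chosen with earlier results of these data known, 49 were measured. In adenocarcinoma against non-transgenic lung, 44 fell, 2 rose and 3 did not pass, with a median of -1.89. Over all clusters, 16.4% fell and 13.6% rose there. Tspan18 (-3.61 ± 0.15), Clec14a (-3.40 ± 0.23), the lymphatic and lung capillary marker Lyve1 (-3.24 ± 0.14) and the tight junction gene Cldn5 (-3.12 ± 0.21) had the largest changes. Hhex, a homeobox gene also active in other cell types, rose by 1.14 ± 0.15, and Fam167b rose by 0.60 ± 0.16. Procr (0.06 ± 0.10), Unc5b (0.12 ± 0.08) and Aplnr (-0.59 ± 0.25) did not pass.

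In dysplasia against unaltered lung 36 of the 49 fell, 1 rose and 12 did not pass (median -0.59), while 5.32% of all clusters fell and 15.1% rose. Tspan18 (-1.08 ± 0.14), Ramp2 (-0.95 ± 0.09), a partner of the adrenomedullin receptor, and the SOXF gene Sox7 (-0.94 ± 0.14) led the falls, and Hhex rose by 0.89 ± 0.14. Adenocarcinoma against dysplasia gave 40 that fell and none that rose (median -0.95), while 7.48% of all clusters fell and 4.48% rose. Unaltered against non-transgenic lung gave 16 that fell and none that rose (median -0.35), while 11.8% of all clusters fell and 2.47% rose. Among the 16 were Plvap (-1.01 ± 0.12), which forms the diaphragms of endothelial pores, and the flow-responsive factor gene Klf2 (-0.69 ± 0.12).

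Markers of other cell types changed as well, some in the direction of the endothelial genes and some in the opposite one. In adenocarcinoma against non-transgenic lung all 11 pan-epithelial genes rose (median 1.76), as did 13 of 14 alveolar type II genes (0.84), while 8 of 10 type I genes (-1.54), 10 of 14 fibroblast genes (-1.80), 9 of 14 pericyte and smooth muscle genes (-1.12) and 6 of 8 platelet genes (-0.68) fell. In the same comparison 2 fibroblast genes, 1 type I gene and 1 pericyte and smooth muscle gene rose. Leukocyte genes had 5 that fell and 3 that rose among 13 (median -0.04). Of all clusters, 16.4% fell and 13.6% rose in adenocarcinoma against non-transgenic lung. In dysplasia against unaltered lung all 11 pan-epithelial and 12 of 14 type II genes rose, and 9 of 14 fibroblast, 6 of 14 pericyte and smooth muscle, 6 of 10 type I and 4 of 8 platelet genes fell. In that comparison 1 type I gene rose, as did 1 leukocyte gene, and no leukocyte gene fell. The shares of all clusters there were 5.32% that fell and 15.1% that rose.

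The mean level of the pan-epithelial list was 10.1 to 10.2 on adenocarcinoma arrays, 9.56 to 10.0 in dysplasia, 8.51 to 8.88 in unaltered lung and 8.19 to 8.75 in non-transgenic lung. For the 10 endothelial genes it was 8.18 to 8.31 in adenocarcinoma, 8.75 to 9.39 in dysplasia, 9.50 to 9.79 in unaltered lung and 9.88 to 10.1 in non-transgenic lung. Dysplasia replicate 3, lowest for the endothelial genes, was the highest dysplasia array for the pan-epithelial list. Pecam1, Esam and Erg are also active in platelets or their precursors, and the platelet list averaged 6.37 to 6.68 in adenocarcinoma, 6.77 to 7.12 in dysplasia, 7.24 to 7.56 in unaltered lung and 7.13 to 7.83 in non-transgenic lung. The leukocyte list, whose cells also carry Pecam1, had 9.22 to 9.33 in adenocarcinoma, 9.43 to 9.52 in dysplasia, 9.39 to 9.54 in unaltered lung and 9.22 to 9.60 in non-transgenic lung. The part of these other cell types in the fall of the endothelial genes was not tested.

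**Figure D5:**
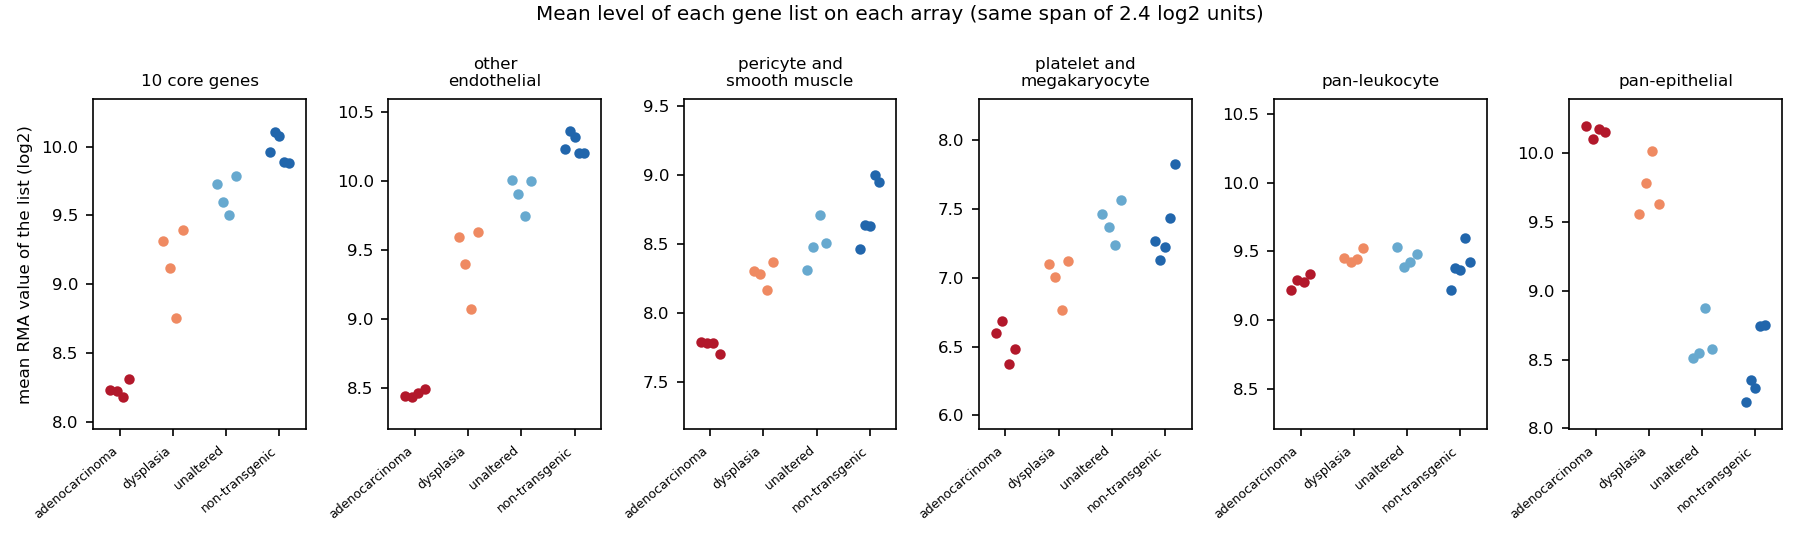
Mean log2 RMA value of each gene list on every array (vertical axes of equal span), by tissue group. The 10 core genes and the other endothelial genes step down towards adenocarcinoma (8.18 to 8.31 for the core genes there), the pan-epithelial list steps up to 10.1 to 10.2, and the leukocyte list stays between 9.22 and 9.60.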

How the data were processed

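Expression was measured on exon arrays in 4 adenocarcinomas, 4 dysplasias, 4 pieces of unaltered lung and 5 non-transgenic lungs. The deposited values are log2 values of core transcript clusters that the authors computed by RMA in Expression Console, per the labels, from ribosomal RNA-reduced, amplified RNA; GCOS is named in the submitters' processing notes, without a version, and no genome build was stated. They were used unfiltered, without further normalization. A single model of 4 group means was fitted to the 17 arrays in limma 3.58.1 under R 4.3.3, with the animal as a random block (duplicateCorrelation, 0.245), eBayes and Benjamini-Hochberg adjustment over 23238 clusters, threshold 0.05. Labelled sex was left out because it went against Y-linked genes. Animal pairing came from the labels; deviations of the 4 same-animal pairs from their group means correlated at 0.21, 0.08, 0.15 and -0.01, against -0.23 to 0.15 otherwise. Differences from Cdh5 were tested by exact two-sided permutation. The genes, lists, tests and alternatives were chosen with earlier results of these data known. Named beside the 10 genes were up to 4 called genes with the largest changes per list and the 10 clusters most alike in each measure. The list genes that rose, that did not pass, or that fell in unaltered lung were named after their values were seen, and of the other cell-type lists only counts are given. Of the methods, only the limma fit was tried on simulated data with known changes. Alternatives covered blocks, sex, age, filters, normalization, array weights and arrays left out. The number of arrays limits the precision.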

Additional observations from a re-analysis of the deposited data

Results flagged for a closer look

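Among the 40 combinations of gene and group, 3 held an array far from the others of its group, where chance alone gives about 1 in 20. Icam2 was 6.63 in adenocarcinoma replicate 4, against 6.11 to 6.16 in the other adenocarcinomas. Robo4 was 7.49 in adenocarcinoma replicate 2, against 7.27 to 7.31 in the others. Esam was 10.07 in unaltered replicate 3, against 10.36 to 10.40 in the others of that group.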

How the results depend on the processing

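All 10 genes stayed lower and past the threshold in adenocarcinoma and in dysplasia against non-transgenic lung under all 24 alternatives run for each. With age as a covariate, which is largely confounded with group, 1 gene passed in adenocarcinoma against dysplasia, 6 in adenocarcinoma against unaltered lung and 0 in unaltered against non-transgenic lung. Over all clusters these fits called 352, 1483 and 180, against 2780, 6241 and 3317 without age. A fixed replicate block for the animal left 4 of 10 past the threshold in dysplasia against unaltered lung, and clusters called went to 1881, against 4740 with the random block. In unaltered against non-transgenic lung, where 3 passed, 6 passed with array weights, and 1 with quantile normalization, cyclic loess, labelled sex, without arrays naming 2 animals or without non-transgenic replicates 1 to 3; the cause was not tested. Leaving out each array gave 7 to 9 genes in adenocarcinoma against dysplasia, 10 against unaltered and non-transgenic lung, 10 in dysplasia against non-transgenic lung, 6 to 9 in dysplasia against unaltered lung and 1 to 3 in unaltered against non-transgenic lung. It gave 0 to 7 for differences from Cdh5 in both comparisons. With Pecam1 in place of Cdh5, 0 passed against dysplasia, where Esam, Sox18, Robo4 and Nos3 had an adjusted p of 0.0514, and 6 against non-transgenic lung.

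Signs reversed for values that had not passed: Icam2 relative to Cdh5 in adenocarcinoma was 0.026 against dysplasia and 0.045 against non-transgenic lung after quantile normalization, and ran from -0.13 to 0.0054 against dysplasia as each array was left out, above 0 without adenocarcinoma replicate 3. Pecam1 in unaltered against non-transgenic lung was 0.0068 without non-transgenic replicates 1 to 3. Clusters that fell in dysplasia against unaltered lung were 1236 of 4740, 2354 of 4572 with quantile normalization and 2032 of 4329 with cyclic loess. In unaltered against non-transgenic lung they were 2743 of 3317, 822 of 1793 with quantile normalization and 971 of 1955 with cyclic loess, and in adenocarcinoma against unaltered lung 2338 of 6241, 2796 of 6100 with quantile normalization and 3140 of 6192 with cyclic loess. Clusters called ranged over the alternatives between 352 and 5378 in adenocarcinoma against dysplasia (2780 as reported), and between 180 and 4754 in unaltered against non-transgenic lung (3317). In adenocarcinoma against unaltered lung they ranged between 1483 and 7486 (6241), and against non-transgenic lung between 4308 and 10216 (6980). The range was 2394 to 5662 in dysplasia against non-transgenic lung (4062), and 1881 to 5705 against unaltered lung (4740). Each gene had 1 cluster, so averaging clusters changed nothing and was not run.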
